A study of Drosophila melanogaster with 20 samples.

Results

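Ribosomal protein genes were followed through small-RNA libraries of sorted cells from Drosophila melanogaster embryos. The members were all gene rows whose FlyBase symbol begins with RpL or RpS and a digit or P, so that genes of mitochondrial ribosomal proteins stayed out. Rows that share a same-strand exon with a microRNA hairpin or a snoRNA were left out. The rule gave 88 of the 17559 gene rows. Grouped by symbol, 47 were genes of the large subunit, 37 of the small subunit and 4 of the stalk, RpLP0-like being counted with the stalk. A further 4 genes, RpL13A, RpL28, RpL3 and RpS6, were left out because a snoRNA lies in an exon. RpSA, named sta in FlyBase, is not matched by the rule and is counted below with the translation factors.

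The cytosolic ribosome consists of a small subunit, which reads the mRNA, and a large subunit, which joins the amino acids. Each carries a fixed set of ribosomal proteins on rRNA, and a lateral stalk of acidic proteins recruits the translation factors that hydrolyse GTP. Ribosomal protein mRNAs are among the most abundant mRNAs of growing cells, and many of their genes carry snoRNAs in introns. Flies that lack a copy of such a gene often show the Minute phenotype of slow growth and thin bristles.

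Embryos were dissociated, and the cells were fixed with formaldehyde, stained with antibodies and sorted by FACS into a marker-positive and a marker-negative fraction. At 18-22 h after egg laying the groups were repo+ and repo- cells (glia enriched in the positive fraction) and elav+ and elav- cells (neurons enriched). At 6-8 h they were repo+ and repo- cells, elav+ and elav- cells, and pros+ and pros- cells (prospero, neuroblasts enriched). Each of the 10 groups had 2 libraries, which the labels call biological duplicates, and no genotype or strain is given in the labels used here. A marker-negative fraction is a mixture of every other cell of the embryo, also of neural cells that lack the marker. The libraries hold short RNAs in reads of up to 51 bases. A fragment assigned to a ribosomal protein gene is therefore a short piece of its transcript, and no mRNA level was measured.

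Deposited counts ranged from 6863042 to 24501421 per library over all rows, and without RpL15 from 23587 to 84647 on the members. Counts were scaled to CPM over the rows that are no microRNAs. Each library total was first multiplied by edgeR's TMM factor, which ran from 0.637 to 1.73, so CPM here is no plain share of the library. The sort markers followed their labels: repo lay at 130 to 235 CPM in repo+ libraries and 2.82 to 5.13 CPM in repo- libraries. Likewise, elav lay at 271 to 596 CPM in elav+ and 18.2 to 49.9 CPM in elav- libraries, and pros at 195 and 227 CPM in pros+ against 12.7 and 12.7 CPM in pros- libraries. The pros+ libraries also held elav at 196 and 255 CPM. Replicate 2 of elav+ at 6-8 h stood apart, with microRNAs at 1.01% and protein-coding genes at 21.7% of its counts, against 5.95% to 11.8% protein-coding in the other 19 libraries. Replicate 2 of elav- at 6-8 h held 2.09% microRNAs. The 4 pros libraries were mapped in another directory than the other 16, per the file headers, so a difference between a pros fraction and another fraction cannot be told apart from one in processing.

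Fragments were detected from most of the members. In all 20 libraries, 82 of the 88 had a count, and 8 averaged below 5 CPM over the libraries. The highest level per length was that of RpL15, a core protein of the large subunit, at 7440 CPM per kilobase of exon. The next were RpL39 with 297 and RpL41 with 219 CPM per kilobase, which encode very short proteins of the large subunit. RpL21 (172), RpL36 (170), RpLP1 (152) and RpLP2 (133) were also among the highest on the same scale.

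RpL15 behaved unlike any other member in level and in spread. It had 3589 and 5773 CPM in repo+ against 5664 and 24369 CPM in repo- libraries at 18-22 h, and 2628 and 10470 CPM in elav+ against 5746 and 41610 CPM in elav-. At 6-8 h the values were 2262 and 938 CPM in repo+ against 3761 and 3846 CPM in repo-, 1832 and 1292 CPM in elav+ against 4264 and 4454 CPM in elav-, and 25234 and 1349 CPM in pros+ against 1281 and 1124 CPM in pros-. The 2 libraries of a group thus differed widely, most of all those of pros+ cells, and by itself RpL15 made up 13.6% to 85.4% of the member counts of a library. The gene lies at 3L:27267255-27268445 on the plus strand (BDGP6), and a later Ensembl release places snoRNA:Me18S-G1358c in its exon, a snoRNA that has no row in the deposited counts. RpL15 passed the rule but is left out of the sums below for its share of the counts. The later release also places snoRNA:Or-CD15 in an exon of RpL23A, which stayed in the sums with counts of 293 to 1642 per library. In none of the 5 sorts was RpL15 called by edgeR's quasi-likelihood test. For elav+ over elav- at 18-22 h its log2 fold change was -1.85 ± 0.94 (SE; edgeR adjusted p = 0.212). For pros+ over pros- it was 3.47 (edgeR adjusted p = 0.0717).

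Summed over the 87 members without RpL15, fragments were less frequent in elav+ cells than in elav- cells at both stages, and the other sorts differed less. At 18-22 h the sum was 3059 and 3432 CPM in elav+ libraries against 5983 and 7133 CPM in elav- libraries, or 3245 ± 264 and 6558 ± 813 CPM (SD, n = 2 each). The ratio of the means was 0.495. At 6-8 h the sum was 4239 and 2279 CPM in elav+ against 6027 and 5167 CPM in elav- libraries, a ratio of 0.582. The groups did not overlap in either case, and replicate 1 of elav+ at 6-8 h alone, without the library that stands apart, also lay below both elav- libraries. The size of these differences depends on the scaling. At 6-8 h the TMM factors were 0.972 and 1.73 in elav+ against 0.804 and 0.867 in elav- libraries. With libraries scaled by total counts, the median log2 fold change of the members was -0.62 at 18-22 h and -0.28 at 6-8 h. Over all rows it was then 0.18 and 0.68. In bulk samples, fewer cells of a type and less RNA per cell cannot be told apart.

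The repo and pros sorts showed smaller differences in the same sum. At 18-22 h it was 5570 and 5055 CPM in repo+ against 5582 and 5713 CPM in repo- libraries, a ratio of 0.941. At 6-8 h it was 4888 and 5028 CPM in repo+ against 5728 and 5859 CPM in repo- libraries, a ratio of 0.856. The repo+ libraries lay below the repo- libraries at both stages, by a margin far smaller than in the elav sorts. In the pros sort the groups overlapped, with 6028 and 7751 CPM in pros+ and 5263 and 7119 CPM in pros- libraries, a ratio of 1.11. With RpL15 counted in, the ratios were 0.324 and 0.484 for the elav sorts at 18-22 h and 6-8 h, 0.484 and 0.683 for the repo sorts, and 2.73 for the pros sort. With 2 libraries against 2, an exact two-sided permutation test cannot give a p below 0.333, so no test of the sums was made.

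**Figure D1:**
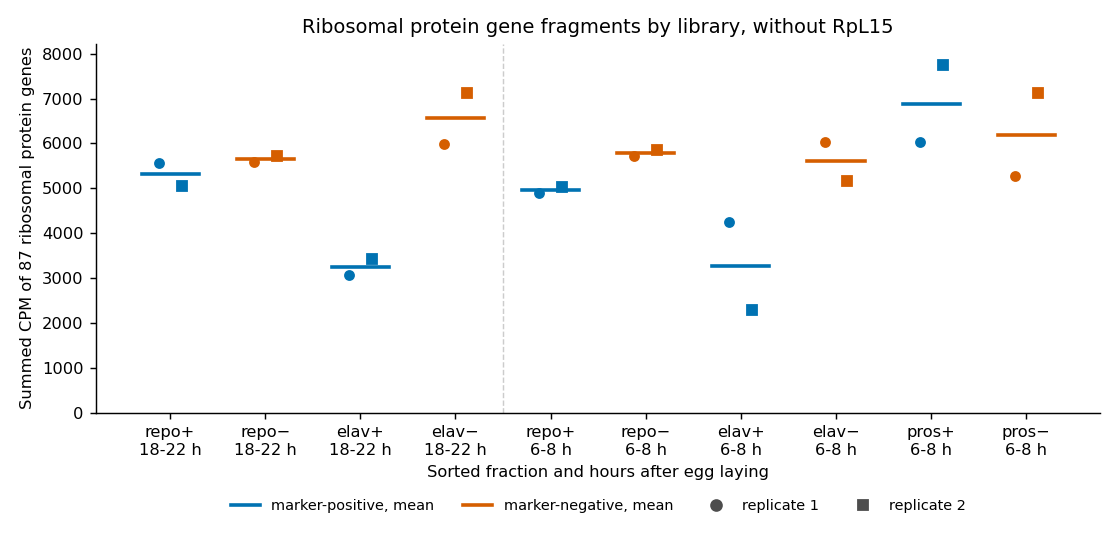
Summed CPM of 87 ribosomal protein genes (RpL15 left out) in each of the 20 libraries, with group means as bars; groups run along the x axis and the y axis starts at 0. The elav+ libraries lie lowest, at 3059 and 3432 CPM at 18-22 h and 4239 and 2279 CPM at 6-8 h, and the highest value, 7751 CPM, is a pros+ library.

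At 18-22 h, elav+ cells had less of the fragments of 28 ribosomal protein genes than elav- cells, and more of none. Of the 84 members with enough counts to be tested, 28 fell and 0 rose at an adjusted p under 0.05 (edgeR quasi-likelihood test, Benjamini-Hochberg), where 5.24% of all 11726 rows tested fell and 8.83% rose. The median log2 fold change of the members was -1.0, with the middle 50% of the members between -1.20 and -0.82, against -0.19 over all rows. Both elav+ libraries lay below both elav- libraries for 77 of the 84 members, which held for 33.5% of all rows, and 81 of 84 had a log2 fold change below 0, against 55.1% of all rows. The genes called came from both subunits and the stalk. Of 45 large subunit genes 13 fell (median -0.99), and of 35 small subunit genes 13 (median -1.0). Of the 4 genes grouped with the stalk, RpLP0-like included, 2 fell.

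Among the 28 genes called, RpS14a and RpL35A had the largest changes. Here and below, called genes were mostly picked for naming where the groups did not overlap, so that the lack of overlap is then part of the choice and no support. RpS14a, a protein on the platform of the small subunit, had 26.7 and 17.2 CPM in elav+ libraries against 126 and 121 CPM in elav- libraries, a log2 fold change of -2.49 ± 0.43 (SE; edgeR adjusted p = 0.000431) or 5.63-fold lower. RpL35A, whose human counterpart is mutated in some patients with Diamond-Blackfan anaemia, had 10.2 and 9.58 CPM in elav+ against 36.6 and 34.1 CPM in elav- libraries (-1.84 ± 0.38, edgeR adjusted p = 0.00228). The elav+ and elav- libraries of both genes lay far apart relative to the spread within groups, and both calls held under each of the 14 alternatives run, each library left out included. RpS14a lies at X:7933742-7934677 on the plus strand, and RpL35A at 3R:5465630-5467101 on the minus strand (BDGP6).

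Of the stalk, RpLP1 had 35.1 and 62.1 CPM in elav+ against 142 and 169 CPM in elav- libraries (-1.68 ± 0.42, edgeR adjusted p = 0.0085). RpLP2, its partner in the stalk's dimers, had 44.5 and 44.4 CPM in elav+ against 94.0 and 123 CPM in elav- libraries (-1.28, edgeR adjusted p = 0.00778). Both acidic proteins of the stalk thus fell by more than the median member. RpLP0, which anchors them to the rRNA, had 43.3 and 54.1 CPM in elav+ against 92.1 and 102 CPM in elav- libraries and missed the threshold (-0.99, edgeR adjusted p = 0.0572).

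In the small subunit, RpS5b, a gene known from the female germ line, had 4.37 and 7.84 CPM in elav+ against 19.4 and 19.6 CPM in elav- libraries (-1.67 ± 0.41, edgeR adjusted p = 0.0076). RpS2, near the mRNA entry channel, had 48.9 and 53.2 CPM in elav+ against 106 and 151 CPM in elav- libraries (-1.33 ± 0.38, edgeR adjusted p = 0.0212). Both were lower in each elav+ library than in each elav- library. RpS12, which in flies takes part in the competition between cells with different ribosomal protein gene doses, fell with 28.7 and 33.7 CPM in elav+ against 70.1 and 82.9 CPM in elav- libraries (edgeR adjusted p = 0.0267). RpS3, at the mRNA entry site, and RpS27A, made as a fusion with ubiquitin, fell at log2 fold changes of -1.0 and -1.03. The other ubiquitin fusion, RpL40, was at -0.92 with an edgeR adjusted p of 0.0847.

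In the large subunit, RpL18 had 29.5 and 35.8 CPM in elav+ against 77.6 and 90.0 CPM in elav- libraries (-1.36 ± 0.32, edgeR adjusted p = 0.00521), with no overlap. RpL11, which assembles with 5S rRNA, fell at -1.07 with an edgeR adjusted p of 0.0266. Its partner in that particle, RpL5, was at -0.93 (edgeR adjusted p = 0.0533). RpL10, which joins the large subunit late, was at -0.75 (edgeR adjusted p = 0.107), and RpL32, widely used as a reference gene in flies, at -1.01 (edgeR adjusted p = 0.0857). RpL39, RpL41, RpL21 and RpL36, the most abundant per length after RpL15, lay between -0.99 and -0.89 and missed the threshold. Of the members with a snoRNA in the gene span, 8 of 23 fell (median -1.01), and of those without, 20 of 61 (median -0.99).

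The count of 28 depended on single libraries. It was 2 without elav+ replicate 1, 6 without elav+ replicate 2, 11 without elav- replicate 1 and 5 without elav- replicate 2, with medians of the members between -1.09 and -0.81. With libraries scaled by total counts it was 4, and with rows under a mean of 5 CPM left out it was 62. Of the genes described as lower, RpS14a and RpL35A kept their calls without any single library. RpS12, RpL11, RpS3 and RpS27A lost theirs without any of the 4 libraries in turn (adjusted p = 0.0617 to 0.324). RpS2 and RpLP2 lost theirs without either elav+ replicate or elav- replicate 2 (0.0743 to 0.205), and RpLP1 and RpL18 without elav+ replicate 1 (0.165 and 0.103) or elav- replicate 2 (0.0662 and 0.0611). RpS5b lost its call without elav+ replicate 1 (0.162). Marker genes of other cell types differed in this sort too. The 8 hemocyte markers summed to 370 and 299 CPM in elav+ against 7936 and 4382 CPM in elav- libraries, and the 8 muscle markers to 531 and 493 CPM in elav+ against 1330 and 1003 CPM in elav- libraries. None of the 8 hemocyte or 8 muscle markers was at 0 in both libraries of a group. In the repo sort of the same stage, hemocyte markers summed to 547 and 312 CPM in repo+ against 7331 and 3414 CPM in repo- libraries. The part of hemocytes and muscle cells in the results of either sort was not tested.

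At 6-8 h the same direction was found in the elav sort, with 7 genes called. Of 84 members tested, 7 fell and 0 rose by edgeR's quasi-likelihood test (adjusted p under 0.05), where 3.6% of all rows fell and 5.38% rose. The median of the members was -0.82, against 0.00 over all rows, and 81 of 84 were below 0, against 49.7% of all rows. Both elav+ libraries lay below both elav- libraries for 65 members, against 24.4% of all rows. The 7 were 4 large subunit genes (RpL27, RpL35, RpL4 and RpL10Ab), the small subunit gene RpS5b, and RpLP0 and RpLP2 of the stalk.

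RpS5b had 19.8 and 9.87 CPM in elav+ against 58.0 and 42.8 CPM in elav- libraries at 6-8 h, 3.41-fold lower (log2 -1.77 ± 0.40, edgeR adjusted p = 0.0063). RpL35, beside the exit of the peptide tunnel, had 27.0 and 26.5 CPM in elav+ against 70.8 and 50.4 CPM in elav- libraries (-1.18 ± 0.30, edgeR adjusted p = 0.015). RpL27 had 47.1 and 26.7 CPM in elav+ against 86.9 and 84.1 CPM in elav- libraries (-1.21 ± 0.33, edgeR adjusted p = 0.0233). The elav+ replicates of RpS5b and RpL27 also differed from each other, with replicate 2 the lower.

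In the stalk, RpLP2 had 41.4 and 32.0 CPM in elav+ against 67.7 and 91.3 CPM in elav- libraries (-1.12 ± 0.31, edgeR adjusted p = 0.0277), and RpLP0 had 55.6 and 25.5 CPM in elav+ against 96.6 and 77.7 CPM in elav- libraries (-1.11 ± 0.34, edgeR adjusted p = 0.0478). RpL4, which lines the peptide tunnel, had 66.2 and 33.5 CPM in elav+ against 101 and 109 CPM in elav- libraries (-1.08 ± 0.33, edgeR adjusted p = 0.0437). Replicate 2 of elav+ was the lower in all 3 genes.

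These calls were lost without elav+ replicate 2, the library that stands apart. Without it 0 of 84 members were called and the median was -0.36; without elav+ replicate 1, 44 were called with a median of -1.39. Without elav- replicate 1 or elav- replicate 2, 2 were called. Without elav+ replicate 2 the adjusted p was 0.15 for RpS5b, 0.13 for RpL35, 0.33 for RpL27, 0.281 for RpLP2, 0.53 for RpLP0, 0.494 for RpL4 and 0.499 for RpL10Ab. Without elav- replicate 1 it was 0.0834 for RpL27, 0.137 for RpL35, 0.201 for RpLP0, 0.0995 for RpL4 and 0.196 for RpL10Ab, without elav- replicate 2 it was 0.102 for RpL27, 0.255 for RpLP2, 0.106 for RpLP0, 0.208 for RpL4 and 0.122 for RpL10Ab, and without elav+ replicate 1 it was 0.0569 for RpL35. Libraries scaled by total count left 0 called. Hemocyte markers summed to 29.5 and 76.1 CPM in elav+ against 257 and 805 CPM in elav- libraries, and their part was not tested.

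**Figure D2:**
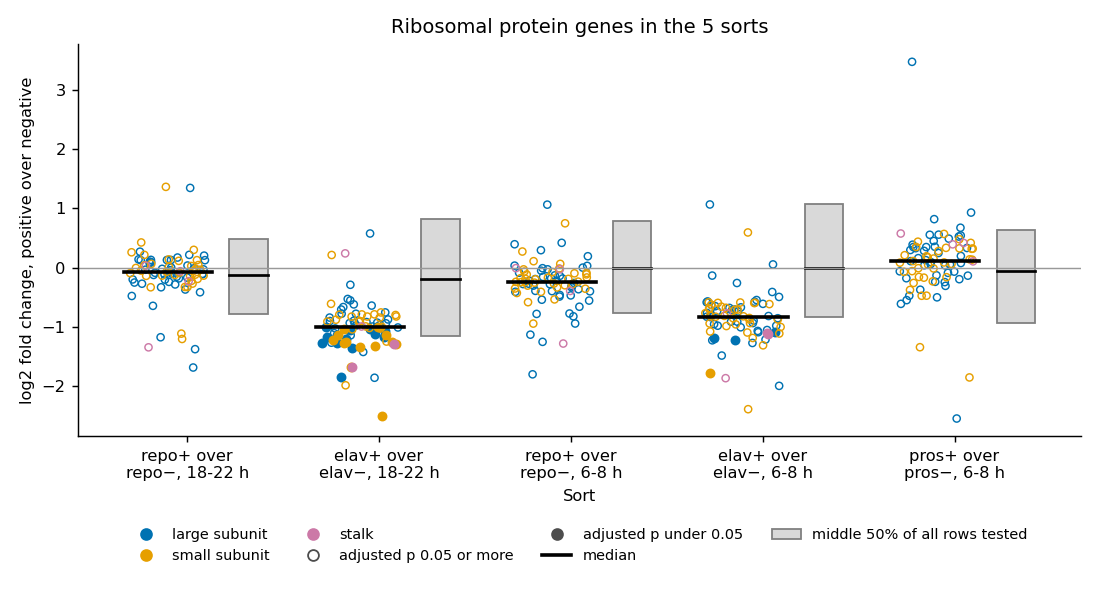
Log2 fold change of marker-positive over marker-negative cells for each tested ribosomal protein gene in the 5 sorts (y axis), coloured by subunit, filled where the adjusted p is under 0.05; black bars are medians and grey boxes the middle 50% of all rows tested. The points of both elav sorts lie mostly below 0, with medians of -1.0 at 18-22 h and -0.82 at 6-8 h, and filled points occur in no other sort.

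The calls of both elav stages shared 5 genes, RpL10Ab, RpL27, RpL35, RpLP2 and RpS5b, which are 71.4% of the calls at 6-8 h and 17.9% of those at 18-22 h. At 18-22 h the calls of RpL10Ab and RpL27 were lost without any of the 4 libraries in turn (edgeR adjusted p = 0.071 to 0.365), and that of RpL35 without elav+ replicate 1 (0.208) or elav- replicate 1 (0.0963). Among the 80 members with a mean of at least 5 CPM, 77 had a log2 fold change below 0 at both stages, against 1941 of 4905 rows of that level. The size of the change did not go along gene by gene: across the 80 members Pearson's r was -0.149 and Spearman's rho 0.217, against 0.646 and 0.607 across the 4905 rows. RpL36 was at -0.96 at 18-22 h and -0.13 at 6-8 h. RpS14a had opposite signs, as described with the stages.

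**Figure D3:**
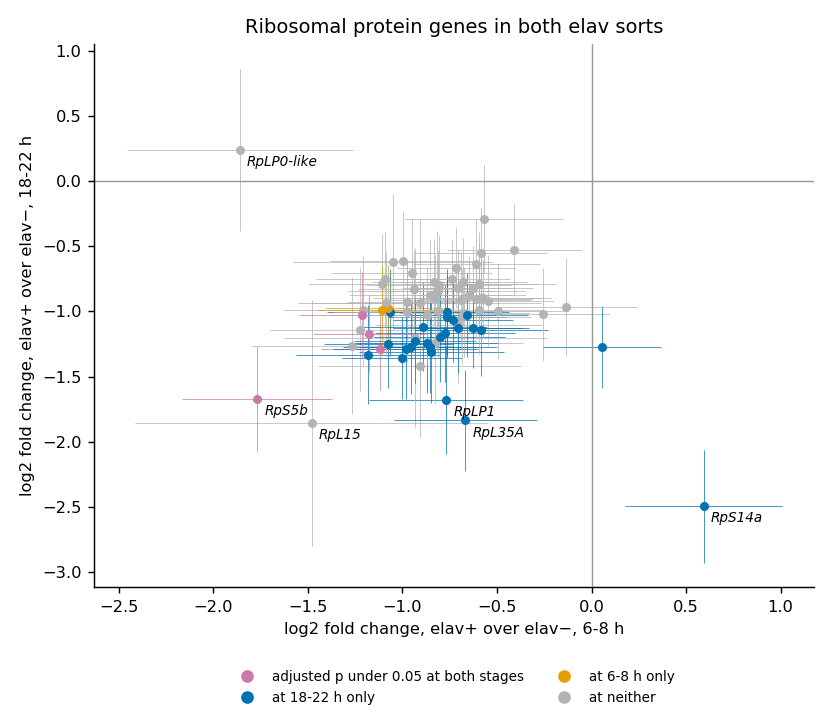
Log2 fold change of elav+ over elav- cells at 6-8 h (x axis) and at 18-22 h (y axis) for 80 ribosomal protein genes with a mean of at least 5 CPM; error bars are standard errors and colours show where the adjusted p is under 0.05. Most points form a cloud below 0 on both axes, and RpS14a lies apart at -2.49 at 18-22 h and 0.59 at 6-8 h, as does RpLP0-like at 0.24 at 18-22 h and -1.86 at 6-8 h.

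In the repo and pros sorts no ribosomal protein gene was called. For repo+ over repo- at 18-22 h, 0 of 84 members were called by edgeR's quasi-likelihood test (3 at an unadjusted p under 0.05, 0 by DESeq2), where 2.31% of all rows were; the median was -0.07, against -0.12 over all rows. At 6-8 h, 0 were called (5 at an unadjusted p under 0.05, 0 by DESeq2), where 3.36% of all rows were. There 72 of 84 members lay below 0, against 50.2% of all rows, with a median of -0.24 against -0.00. For pros+ over pros-, edgeR called 0 (2 at an unadjusted p under 0.05, 1 by DESeq2), where it called 2.46% of all rows, and 30 of 84 members lay below 0, against 51.9% of all rows, with a median of 0.11. That median turned to -0.05 without pros+ replicate 2 and -0.11 without pros- replicate 1, and was 0.46 without pros- replicate 2. RpLP2 had 190 and 149 CPM in pros+ against 86.5 and 141 CPM in pros- libraries (0.57, edgeR adjusted p = 0.352), and RpL5 had 181 and 222 CPM in pros+ against 124 and 150 CPM in pros- libraries (0.56, edgeR adjusted p = 0.373).

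The elav sort was set against the repo sort directly. At 18-22 h the log2 fold change of elav+ over elav- minus that of repo+ over repo- had a median of -0.90 over the 84 members, against -0.11 over all rows. By edgeR's quasi-likelihood test 0 members passed an adjusted p under 0.05 (23 at an unadjusted p under 0.05, 5 by DESeq2), where 6.07% of all rows did. At 6-8 h the median was -0.56 and 0 passed (5 at an unadjusted p under 0.05, 0 by DESeq2), where 1.45% of all rows did. The median at 6-8 h was -0.16 without elav+ replicate 2, the library that stands apart, against 0.03 over all rows, and -1.16 without elav+ replicate 1. At 18-22 h edgeR called 11 members when rows with a mean under 5 CPM were left out, and 7 when protein-coding rows alone were tested, so the calls of this difference depended on which rows were tested. For RpS14a, the elav sort at 18-22 h gave -2.49 and the repo sort -1.20 (edgeR adjusted p = 0.186), with 41.8 and 39.7 CPM in repo+ against 124 and 63.4 CPM in repo- libraries.

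Among the marker-positive fractions, elav+ cells had the lowest levels. Over elav+ cells, repo+ cells had 1.64 times the sum without RpL15 at 18-22 h and 1.52 times at 6-8 h, with no overlap of the libraries. At 18-22 h, 2 of 84 members were higher in repo+ cells and 0 lower (edgeR quasi-likelihood test, adjusted p under 0.05), where 2.39% of all rows were higher, with a median of 0.70; both repo+ libraries lay above both elav+ libraries for 75 members, against 23.6% of all rows. RpL35A was among those higher, with 29.6 and 18.9 CPM in repo+ against 10.2 and 9.58 CPM in elav+ libraries (1.29, edgeR adjusted p = 0.0474). Both calls were lost without any of the 4 libraries in turn, when 0 members were called.

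At 6-8 h, 2 of 84 were again higher in repo+ than in elav+ cells, where 1.82% of all rows were, with a median of 0.61. RpL35 had 68.7 and 71.8 CPM in repo+ against 27.0 and 26.5 CPM in elav+ libraries (1.39 ± 0.30, edgeR adjusted p = 0.00935). RpL36A, near the exit site of the tRNA, had 53.5 and 50.1 CPM in repo+ against 27.9 and 15.6 CPM in elav+ libraries (1.26, edgeR adjusted p = 0.0409). The count was 1 without repo+ replicate 1, 0 without repo+ replicate 2 or elav+ replicate 2, and 21 without elav+ replicate 1. The median was 0.18 without elav+ replicate 2 and 1.15 without elav+ replicate 1.

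Against pros+ cells, both other positive fractions of 6-8 h had less of many members. The sum without RpL15 was 4888 and 5028 CPM in repo+ and 4239 and 2279 CPM in elav+, against 6028 and 7751 CPM in pros+ libraries. By edgeR's quasi-likelihood test (adjusted p under 0.05), 32 of 84 members were lower in elav+ than in pros+ cells and 1 was higher, where 3.95% of all rows were lower and 6.63% higher; the median was -1.0. For repo+ over pros+, 18 were lower and 3 higher, where 4.55% of all rows were lower and 7.0% higher; the median was -0.43. Both comparisons share the pros+ libraries, and these were mapped in another directory, so a difference in processing cannot be told apart.

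RpLP2 of the stalk and RpS10b, a small subunit protein, were lower in both. RpLP2 had 49.6 and 52.4 CPM in repo+ and 41.4 and 32.0 CPM in elav+, against 190 and 149 CPM in pros+ libraries (log2 -1.73 for repo+ and -2.21 for elav+, edgeR adjusted p = 0.0019 and 0.000364). RpS10b had 36.3 and 45.0 CPM in repo+ and 29.4 and 18.9 CPM in elav+, against 94.6 and 139 CPM in pros+ libraries (-1.52 and -2.28, edgeR adjusted p = 0.00676 and 0.000532). RpL4 had 64.6 and 80.4 CPM in repo+ and 66.2 and 33.5 CPM in elav+, against 168 and 220 CPM in pros+ libraries (-1.42 and -1.96). In each gene every repo+ and elav+ library lay below both pros+ libraries. RpL37-1, a large subunit protein, had 16 and 8.90 CPM in repo+ and 22.7 and 3.58 CPM in elav+, against 40.5 and 59.9 CPM in pros+ libraries.

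The 3 members that were higher in repo+ than in pros+ cells were RpS14a, RpL36A and RpL24. RpS14a had 164 and 77.9 CPM in repo+ against 22.0 and 39.1 CPM in pros+ libraries (1.99, edgeR adjusted p = 0.00523). RpL24, which bridges the subunits, had 70.4 and 81.6 CPM in repo+ against 44.2 and 26.3 CPM in pros+ libraries (1.11, edgeR adjusted p = 0.0374), and RpL36A had 53.5 and 50.1 CPM in repo+ against 25.6 and 18.9 CPM in pros+ libraries (1.22, edgeR adjusted p = 0.0241). The single higher call of elav+ over pros+, RpL22-like, rests on counts of 4.09 and 17.9 in elav+ and 0.33 and 0.12 in pros+ libraries. RpL15, called lower in both comparisons at adjusted p of 0.0492 and 0.0499, overlapped, and without pros+ replicate 1 its log2 fold change was 0.32 for repo+ and 0.31 for elav+.

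The counts against pros+ cells moved with single libraries. For elav+ over pros+, the number called in either direction was highest without elav+ replicate 1 and lowest without elav+ replicate 2. The median of that comparison was -1.69 without elav+ replicate 1 and -0.57 without elav+ replicate 2. For repo+ over pros+, 2 members were called without repo+ replicate 1, 6 without repo+ replicate 2, 18 without pros+ replicate 1 and 3 without pros+ replicate 2. Of the genes named, RpLP2 kept its call in both comparisons under each of these, and RpS10b and RpL4 kept theirs for elav+. For repo+, RpS10b (adjusted p = 0.0601 and 0.0735) and RpL4 (0.0707 and 0.0724) lost theirs without repo+ replicate 1 and without pros+ replicate 2, and RpS14a (0.084) without repo+ replicate 1. RpL24 and RpL36A lost theirs without either repo+ replicate or pros+ replicate 2 (adjusted p = 0.0834 to 0.301). RpL37-1 lost its call for repo+ without repo+ replicate 2 (0.172) or pros+ replicate 2 (0.109), and for elav+ without elav+ replicate 2 (0.207) or pros+ replicate 2 (0.127).

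Between the stages the summed level of the members moved little within a fraction. The ratio of the means at 18-22 h over 6-8 h, without RpL15, was 1.07 in repo+, 0.975 in repo-, 0.996 in elav+ and 1.17 in elav- cells, and the elav libraries of the 2 stages overlapped. Few members were called by edgeR's quasi-likelihood test (adjusted p under 0.05): 2 lower and 0 higher in repo+ cells, where 1.85% of all rows were lower; 1 lower in elav+ cells, where 1.19% were; 1 lower in repo- cells, where 4.27% were; and 2 lower and 1 higher in elav- cells, where 5.43% were lower and 6.77% higher. These calls fell on 3 genes, RpS14a, RpS5b and RpLP0-like. In elav+ cells, 4 members were called without replicate 1 of 6-8 h, and in the 4 fractions at most 1 was called without any other library.

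RpS14a was the member whose stage change differed between the elav fractions. It had 26.7 and 17.2 CPM at 18-22 h against 47.1 and 80.8 CPM at 6-8 h in elav+ cells (-1.54, edgeR adjusted p = 0.0493), and 126 and 121 CPM at 18-22 h against 43.2 and 41.7 CPM at 6-8 h in elav- cells (1.54 ± 0.42, 2.91-fold higher, edgeR adjusted p = 0.0194). In repo+ cells it had 41.8 and 39.7 CPM at 18-22 h against 164 and 77.9 CPM at 6-8 h (-1.57, edgeR adjusted p = 0.0412), and in repo- cells 124 and 63.4 CPM at 18-22 h against 57.0 and 87.2 CPM at 6-8 h (0.38, edgeR adjusted p = 0.619). Thus it fell with stage in both positive fractions, rose in elav- cells, and overlapped between the stages in repo- cells. The elav sort contrast at 18-22 h minus that at 6-8 h was -3.09 ± 0.59 (edgeR adjusted p = 0.0085), the sole call among 84 members, where 0.793% of all rows were lower; the same difference for the repo sorts was -1.95 (edgeR adjusted p = 0.231). The call of the elav difference was lost without elav- replicate 2 of 6-8 h (adjusted p = 0.0671) or elav+ replicate 2 of 18-22 h (0.0776), with values of -3.05 and -2.78.

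The stage calls of RpS14a were each lost when single libraries were left out: in repo+ cells without 6-8 h replicate 1 (adjusted p = 0.342) or either 18-22 h replicate (0.224 and 0.226), in elav+ cells without 6-8 h replicate 2 (0.377) or either 18-22 h replicate (0.165 and 0.355), and in elav- cells without any of its 4 libraries (0.059 to 0.145). RpS14b, the neighbouring copy at X:7934898-7935792, encodes a nearly identical protein, and the authors' counting splits a read that maps to both genes. It had 12.5 and 13.2 CPM in elav+ against 23.7 and 22.3 CPM in elav- libraries at 18-22 h (-0.84, edgeR adjusted p = 0.251), and in elav- cells its stage change was 0.23 (edgeR adjusted p = 0.802). Per kilobase, RpS14a held between 44.5% and 83.8% of both copies, the least in pros+ and the most in repo+ cells of 6-8 h. The values of the pair are therefore less certain than those of genes with a single copy.

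RpS5b was lower at 18-22 h than at 6-8 h in all 4 fractions that were sampled at both stages. In repo+ cells it had 14.0 and 10.2 CPM at 18-22 h against 22.1 and 37.6 CPM at 6-8 h, and in repo- cells 29.0 and 23.4 CPM at 18-22 h against 59.2 and 55.6 CPM at 6-8 h. In elav+ cells it had 4.37 and 7.84 CPM at 18-22 h against 19.8 and 9.87 CPM at 6-8 h, and in elav- cells 19.4 and 19.6 CPM at 18-22 h against 58.0 and 42.8 CPM at 6-8 h. No stage pair overlapped. The change passed the test in elav- cells (-1.37, edgeR adjusted p = 0.0261) and missed it in repo+ (-1.30, 0.0716), repo- (-1.13, 0.0622) and elav+ cells (-1.27, 0.101); the elav- call was lost without any of its 4 libraries (adjusted p = 0.0619 to 0.157). The highest levels were 76.4 and 93.9 CPM in pros+ cells, against 45.5 and 69.2 CPM in pros- cells. Over pros+ cells, elav+ cells were at -2.53 (edgeR adjusted p = 0.000716) and repo+ cells at -1.51 (0.0158), the second of which was lost without repo+ replicate 1 (0.14) or pros+ replicate 2 (0.0869). The 7 germ line markers that were found summed to 41.7 and 22.3 CPM in elav+ against 88.4 and 80.2 CPM in elav- libraries at 18-22 h. Most of that difference came from ovo, with 8.25 and 5.23 CPM in elav+ against 45.9 and 43.8 CPM in elav- libraries. It thus mainly reflects 1 gene and not the list as a whole. The markers osk, zpg and pgc were also lower without overlap, pgc being at 0 in both elav+ libraries, while aub, AGO3 and gcl overlapped. In the pros sort the same 7 markers summed to 45.8 and 72.9 CPM in pros+ against 137 and 94.3 CPM in pros- libraries. That is the opposite direction to RpS5b in this sort. The 8 epidermis markers were also lower in the elav sort at 18-22 h, with 67.0 and 124 CPM in elav+ against 180 and 233 CPM in elav- libraries. The part of germ cells or of epidermal cells in the values of RpS5b was not tested. RpS5b lies at 3R:14900432-14901563 on the minus strand (BDGP6).

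RpLP0-like, whose yeast counterpart Mrt4 takes the place of P0 in precursors of the large subunit, was the third gene with a stage change. It had 2.51 and 2.22 CPM at 18-22 h against 12.6 and 10.8 CPM at 6-8 h in repo- cells (-2.30 ± 0.58, edgeR adjusted p = 0.0131), and 1.32 and 1.60 CPM at 18-22 h against 9.71 and 4.51 CPM at 6-8 h in elav- cells (-2.26 ± 0.61, edgeR adjusted p = 0.019). In repo+ cells it had 1.23 and 0.606 CPM at 18-22 h against 4.91 and 4.74 CPM at 6-8 h (-2.37, edgeR adjusted p = 0.0435), at levels below 5 CPM, and this call was lost without any of its 4 libraries (adjusted p = 0.117 to 0.305). In elav+ cells the stages overlapped, with 2.18 and 1.24 CPM at 18-22 h and 2.64 and 1.28 CPM at 6-8 h. The repo- call was lost without any of its 4 libraries (adjusted p = 0.0553 to 0.127), and the elav- call without 6-8 h replicate 1 (0.167) or either 18-22 h replicate (0.161 and 0.098). The highest levels were in the pros sort, with 11.7 and 22.7 CPM in pros+ and 12.9 and 13.3 CPM in pros- cells. Elav+ cells lay below pros+ cells at -3.16 (edgeR adjusted p = 0.00256) and repo+ cells at -1.83 (0.0391); the first was lost without elav+ replicate 2 (0.059), the second without either repo+ replicate or pros+ replicate 2 (0.143 to 0.258).

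**Figure D4:**
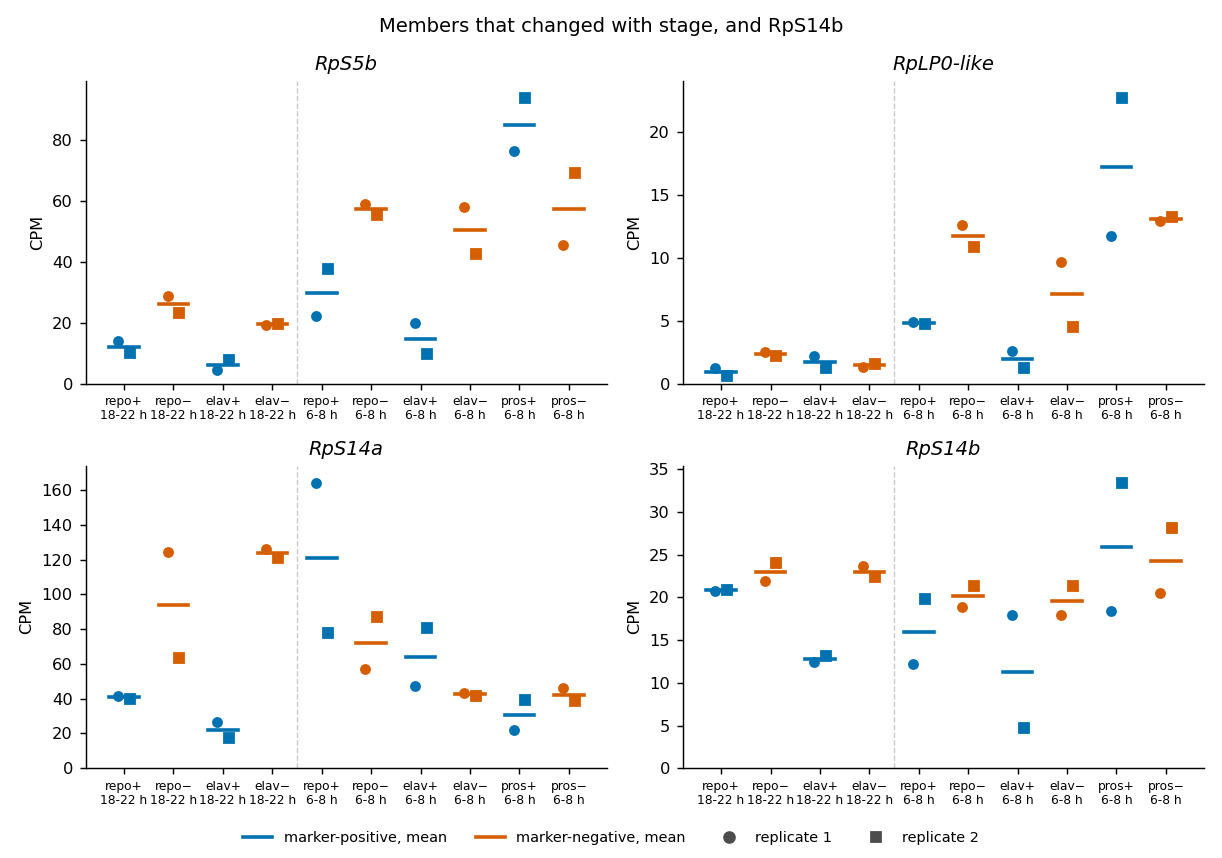
CPM of RpS5b, RpLP0-like, RpS14a and RpS14b in each library (y axes start at 0), by group along the x axis, with the 18-22 h groups left of the dashed line; circles are replicate 1, squares replicate 2 and lines group means. RpS5b lies at 4.37 to 29.0 CPM at 18-22 h and 9.87 to 93.9 CPM at 6-8 h, and RpS14a reaches 126 CPM in elav- cells of 18-22 h and 164 CPM in repo+ cells of 6-8 h.

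The other duplicated genes fell into pairs with a dominant copy and pairs with both copies present. Per kilobase and over the 20 libraries, RpS28a (0.434%), RpS28-like (0.421%), RpL10Aa (0.267%), RpL22-like (0.490%), RpL37-2 (1.54%), RpS19b (1.58%), RpL7-like (3.37%) and RpS10a (4.52%) held a small share of the pair they belong to. RpS10a, RpS19b and RpL22-like are known from the fly germ line. RpLP0-like held 10.8%, RpL24-like 25.4%, RpL34a 28.4% and RpS15Ab 40.5%. RpL24-like, whose yeast counterpart acts in assembly of the large subunit, held 48.0% in pros+ and 52.1% in pros- cells. In the other groups it held between 9.15% and 24.1%. By library the share was 31.1% and 63.3% in pros+ and 43.6% and 57.9% in pros- cells, and it reached 30.0% in repo- replicate 2 of 6-8 h. The difference between the groups cannot be told apart from the separate mapping of the pros libraries.

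Across the groups, most members were lowest in the same fractions. Of the 80 members with a mean of at least 5 CPM, 36 had their highest group mean in pros+ cells of 6-8 h, 22 in elav- cells of 18-22 h and 12 in repo- cells of 6-8 h. The pros libraries were mapped in another directory, so their rank cannot be told apart from a difference in processing. The lowest group mean was in elav+ cells for 75 of them, 35 at 18-22 h and 40 at 6-8 h. The median CPM of the members was 35.2 and 40.0 in elav+ libraries of 18-22 h, and 47.5 and 23.8 in those of 6-8 h. The last value is that of the library that stands apart, and the groups were not ranked again without it. The largest standard deviations of log2(CPM + 1) over the libraries were those of RpL15 (1.55), RpLP0-like (1.18), RpS5b (1.15), RpL24-like (0.898), RpL30 (0.889), RpL37-1 (0.878) and RpS14a (0.859).

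**Figure D5:**
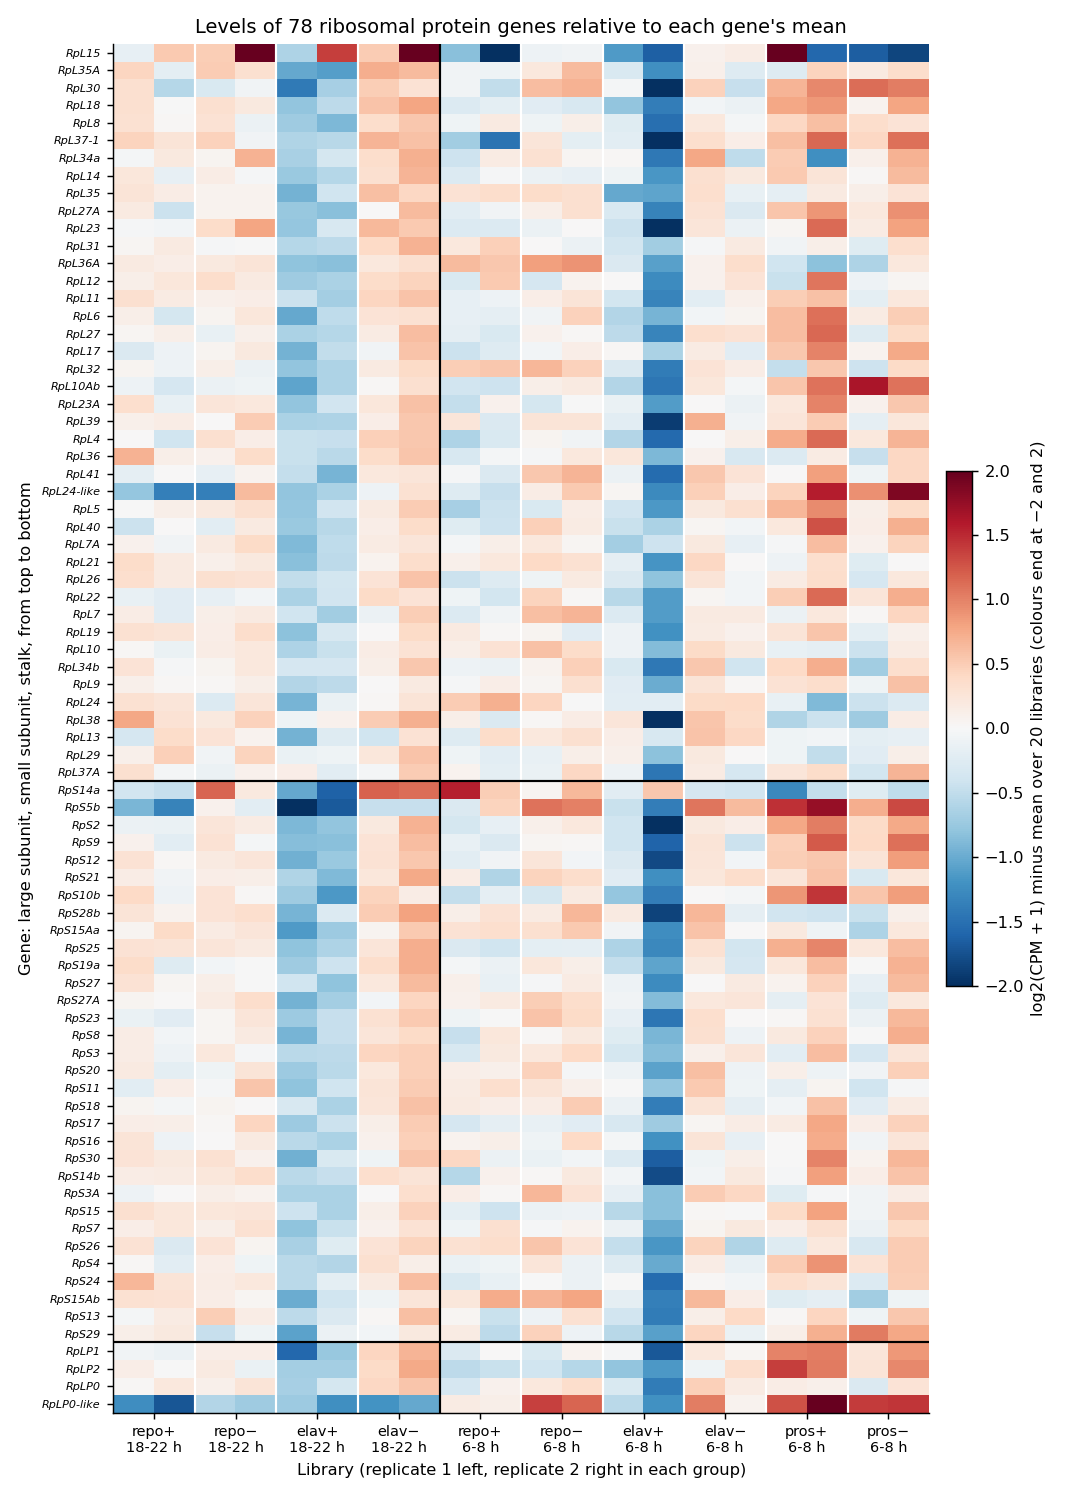
Level of 78 ribosomal protein genes (rows) in the 20 libraries (columns, by group), as log2(CPM + 1) minus the gene's mean over the libraries, with the colour scale ending at 2 in each direction. Columns of elav+ cells are the lowest at both stages, where the lowest group mean of most genes lay.

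Other genes of translation were set beside the ribosomal proteins. Among 36 translation factors and ribosome-associated proteins, 6 fell and 1 rose in elav+ over elav- cells at 18-22 h (edgeR quasi-likelihood test, adjusted p under 0.05), where 5.24% of all rows fell and 8.83% rose, with a median of -0.24. Those that fell were eEF1beta (-1.73), eEF1delta (-1.16) and eEF1gamma (-1.13), which recharge the elongation factor eEF1A with GTP or support that step, the translocase eEF2 (-1.16), and sta (-1.24) and Rack1 (-1.20), which are proteins of the small subunit. The initiation factor eIF5 rose (0.97). At 6-8 h, 3 of 36 fell, sta (-1.25), eEF1beta (-1.16) and eEF2 (-0.90), where 3.6% of all rows fell, with a median of -0.40. The 36 genes then summed to 2049 and 1499 CPM in elav+ against 2730 and 2487 CPM in elav- libraries. The lower elav+ value is that of replicate 2, the library that stands apart. Calls of this list were not recounted without single libraries. In the repo and pros sorts edgeR called 0 of 36, with 2 at an unadjusted p under 0.05 in the repo sort at 18-22 h, 5 in that at 6-8 h and 0 in the pros sort.

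Of 22 genes of ribosome biogenesis, 7 fell in elav+ over elav- cells at 6-8 h, where 3.6% of all rows fell, with a median of -1.65, and 2 fell at 18-22 h, where 5.24% did, with a median of -1.36. At 6-8 h they included the snoRNP proteins nop5 (-2.06), Nop56 (-1.84) and Nop60B (-1.70) and the RNA polymerase I subunit Polr1A (-1.61). The 22 genes summed to 1162 and 1133 CPM in elav+ against 3075 and 4280 CPM in elav- libraries at 6-8 h. The repo sort of that stage also differed, with 1632 and 1078 CPM in repo+ against 3373 and 3458 CPM in repo- libraries. In the pros sort the sums were 1987 and 1462 CPM in pros+ against 1814 and 1674 CPM in pros- libraries. Rows of this list that share an exon with a snoRNA were not left out, and its calls were not recounted without single libraries. With stage, 8 of 22 fell in repo- cells (median -1.69), 6 in elav- cells (-1.39) and 3 in repo+ cells (-1.31), where 4.27%, 5.43% and 1.85% of all rows fell, while in elav+ cells edgeR called 0 (11 at an unadjusted p under 0.05; median -1.11). For the ribosomal proteins themselves the medians of these 4 stage comparisons were -0.03, 0.24, 0.13 and 0.01. With 1 library left out they ranged from -0.11 to 0.06 in repo-, 0.13 to 0.37 in elav- and 0.02 to 0.18 in repo+ cells. In elav+ cells the median was -0.37 without replicate 2 of 6-8 h and 0.61 without replicate 1 of 6-8 h, so the value near 0 rests on libraries that differ. Of 16 growth regulators, Myc, an activator of ribosome production, fell in elav+ over elav- cells at 6-8 h (-2.56), and Mnt, its antagonist, rose (1.67). The growth inhibitor brat rose at 6-8 h (1.78) and at 18-22 h (1.82). Of all rows, 3.6% fell and 5.38% rose at 6-8 h, and 8.83% rose at 18-22 h. These genes are examples and no summary of the list, and their calls were not recounted without single libraries. The 16 genes summed to 883 and 727 CPM in elav+ against 599 and 589 CPM in elav- libraries at 6-8 h. At 18-22 h the sum was 506 and 631 CPM in elav+ against 425 and 433 CPM in elav- libraries. The part of these genes was not tested. Of 73 mitochondrial ribosomal protein genes, 1 fell in elav+ over elav- cells at 18-22 h (median -0.65), where 5.24% of all rows fell. That call was not recounted without single libraries. At 6-8 h edgeR called 0 (3 at an unadjusted p under 0.05, median -0.59).

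The authors' deposited tables of gene changes come from gene-level libraries that are not analysed here and list only genes paired with a microRNA of opposite change, so a member's absence from them says nothing. Their sign was read from elav, nSyb and repo. The authors' deposited table for elav+ over elav- at 18-22 h lists 11 members among 2711 genes, of which 1323 are below 0, and all 11 are below 0. In the authors' deposited table RpS5b is the lowest of these at -1.89 and RpL26 the nearest to 0 at -1.07. The fragments of the same genes had log2 fold changes of -1.67 for RpS5b and -0.87 for RpL26. Over all the authors' deposited tables, the listed member nearest to 0 is RpL30 at -1.04, for elav+ at 6-8 h. Smaller changes may thus be missing from them, while the fragment values have no limit of size. RpL37A is at -1.35 in the authors' deposited table, where its fragments were at -0.29 (edgeR adjusted p = 0.718), with 49.6 and 39.1 CPM in elav+ against 43.9 and 64.6 CPM in elav- libraries. RpS5b is listed in the authors' deposited tables also for elav+ at 6-8 h (-1.19), for repo+ at 6-8 h (-1.37) and for 18-22 h over 6-8 h in repo+ (-1.34) and elav+ cells (-2.10). The fragments of RpS5b were at -1.77, -0.94, -1.30 and -1.27 in these 4 comparisons.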

How the data were processed

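Per the file headers, the deposited counts were made with featureCounts on Ensembl release 85 exons (BDGP6), summed by gene and strand, with a read that maps to several places or genes added as a fraction to each. These deposited values are estimated counts, not scaled for depth, and 94.6% of the members' values are not whole. The submitters' processing notes name Bowtie 1.1.2, SAMtools 1.8, featureCounts 1.5.1 and DESeq2. The authors' deposited tables give log2 fold changes and adjusted p-values of genes and microRNAs.

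Gene symbols came from the name table given with the reference, which matched 17253 of 17559 row IDs, and another 193 were named by exons identical to those of a later Ensembl release. The 237 microRNA rows and 59 rows that share an exon with a hairpin were set aside. Estimated counts were rounded, filtered with filterByExpr and fitted over 20 libraries and 10 groups with edgeR 4.0.16 in R 4.3.3 (TMM factors, quasi-likelihood test, Benjamini-Hochberg over 11726 rows, 10 residual degrees of freedom). CPM uses the same library sizes and TMM factors. The threshold was an adjusted p of 0.05. Of the 88 members 84 were tested; RpL37-2, RpS28a, RpS28-like and RpL10Aa had too few counts. There were 13 comparisons of groups and 4 differences of contrasts. RpL22, RpL23A, RpL7-like, RpS27A and RpS28-like share an exon with another gene on the same strand. The script was tested on simulated data. DESeq2 1.42.0, other scalings, filters and row sets, each library left out and a replicate block were alternatives.

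Named were the 8 members with the highest CPM per kilobase; per comparison and direction up to 6 members called, without overlap and with at least 5 CPM in the higher group; and duplicated genes and members with a textbook role. The members and lists were chosen with earlier results of these data known. Replicates were distinct libraries. P-values rest on the spread between the 2 libraries of a group, estimated over all 10 groups together and not for the compared groups alone. The number of libraries limits the precision. Sequences of the genes were not used here, and a few members are counted but not reported by name.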

Additional observations from a re-analysis of the deposited data

Results flagged for a closer look

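RpS14a was the 1 member for which the elav sort contrast differed between the stages by a test of the difference itself. The log2 fold change of elav+ over elav- cells was -2.49 at 18-22 h and 0.59 at 6-8 h, and the difference was -3.09 (edgeR quasi-likelihood test, adjusted p = 0.0085, 1 of 84 members tested). Over the alternatives run, the difference ranged from -3.47 to -2.57 and its adjusted p from 0.000112 to 0.187. The neighbouring copy RpS14b was at -0.84 at 18-22 h and -0.82 at 6-8 h, and reads shared by the copies may be split between them. Groups of 2 libraries are too small for a check of single libraries against the others of their group.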

How the results depend on the processing

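The count of members called moved with the rows tested, while the direction of the medians in the elav sorts did not turn under any alternative run. For elav+ over elav- at 18-22 h, in place of 28 calls, there were 50 with DESeq2, 62 with a mean of at least 5 CPM, 52 among protein-coding rows, 54 among those without rows that share an exon with a small RNA (chosen after seeing the data), 17 with no filter and 4 with total counts. For elav+ over elav- at 6-8 h, in place of 7, there were 18, 16 and 19 under the first 3 of these, 1 with no filter, 4 with RLE factors, 0 with total counts and 0 without both replicate 2 libraries. Total counts moved the median of all rows to 0.68 in that sort, beside -0.28 for the members. For repo+ over elav+ at 18-22 h, in place of 2, there were 10 with DESeq2, 17 with at least 5 CPM, 9 and 18 in the protein-coding sets, 1 with no filter, 0 with total counts, 5 without both elav 6-8 h replicate 2 libraries and 6 without the 4 pros libraries (chosen after seeing the data). At 6-8 h there were 6, 6, 5, 1, 0 and 0 with DESeq2, at least 5 CPM, protein-coding rows, no filter, total counts and without both replicate 2 libraries. The elav minus repo difference at 18-22 h gave 5 with DESeq2, 11 with at least 5 CPM, 7 and 8 in the protein-coding sets and 3 without the pros libraries, in place of 0. Without both replicate 2 libraries elav+ over pros+ gave 9, and the elav difference between stages 0. The pros sort gave 1 with DESeq2, no filter, protein-coding rows or total counts. The stage calls in elav- cells were 5 with DESeq2 or at least 5 CPM; in elav+ cells 2 with DESeq2, at least 5 CPM, no filter or total counts and 0 with RLE factors or without both replicate 2 libraries; in repo- cells 2 with at least 5 CPM, no filter, protein-coding rows or total counts; and in repo+ cells 1 with RLE factors, without the pros libraries or without rows that share an exon with a small RNA.

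As a share of protein-coding counts, the sums without RpL15 gave ratios of 0.493 and 0.604 in the elav sorts at 18-22 h and 6-8 h, and 0.911 in the pros sort, where the groups overlapped and CPM gave 1.11.

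With 1 library left out, the calls ranged from 2 to 11 for the elav sort at 18-22 h, 0 to 44 at 6-8 h, 0 to 0 for both repo sorts, 0 to 1 for the pros sort, 0 to 0 and 0 to 21 for repo+ over elav+ at 18-22 h and 6-8 h, 2 to 18 for repo+ over pros+ and 6 to 57 for elav+ over pros+. For the stages they were 0 to 1 in repo+, 0 to 4 in elav+, 0 to 0 in repo- and 0 to 1 in elav- cells. For the differences they were 0 to 0 between the repo stages, 0 to 2 between the elav stages, 0 to 2 for elav minus repo at 6-8 h and 0 to 0 at 18-22 h. RpL36 in the elav sort at 6-8 h turned to 0.41 with total counts, 0.06 with no filter, 0.16 without both replicate 2 libraries, 0.37 without elav+ replicate 2 and 0.06 without elav- replicate 1, and was -0.82 without elav+ replicate 1. With 1 library left out, RpL15 ranged from -3.16 to 0.23 in the elav sort at 18-22 h, from -4.0 to 0.32 for repo+ over pros+ and from -4.05 to 0.31 for elav+ over pros+. The cause was not tested for any of these.

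The labels do not say what a replicate number shares, and pairs of libraries are too few to show it. The correlation of the deviations of same-numbered libraries from their group means was 0.012 to 0.169 over all rows in the 5 sorts, and 0.086 to 0.422 over the members, the highest for the elav sort at 18-22 h. With a replicate block the calls were 54 and 29 for the elav sorts at 18-22 h and 6-8 h, 1 for repo+ over elav+ at 18-22 h, 1 for elav minus repo at 18-22 h and 0 for the stages in elav+ cells. With 2 libraries a group and few counts for genes under 5 CPM, small changes in such members could not be detected.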

Other observations

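The 4 ribosomal protein genes with a snoRNA in an exon were left out of all comparisons. Their deposited counts per library ranged from 7306 to 30896 for RpL13A, from 1136 to 418939 for RpL28, from 11233 to 49167 for RpL3 and from 214 to 1481 for RpS6, whose protein is the classical substrate of S6 kinase. RpL23A, a member, overlaps a small RNA host gene row on the same strand.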
